A study of Arabidopsis thaliana with 12 samples.

Results

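RNA that co-precipitated with *At*MKIP1-YFP was compared with the RNA of the soluble extract it was taken from, to rank the chloroplast RNAs that the precipitate kept and those it lost. The comparison was defined by the sample labels and takes 6 of the 12 libraries: 3 anti-YFP precipitates of *At*MKIP1-YFP and the 3 inputs of the same line. In the first line *At*MKIP1, tagged with YFP, was expressed from the *UBQ10* promoter in the *mkip1-2* mutant background. The other 6 libraries are precipitates and inputs of *At*BE3-YFP, a starch-branching enzyme with the same tag and promoter in the Col-0 wild type, and they serve as the background of the bead and library procedure. Each replicate was a pool of whole 10-day-old seedlings grown with Basta, 10 g per pool, so all cell types of the seedling were mixed. The promoter is active in most cells and does not follow the expression of the native genes. Reads were mapped only to the chloroplast genome, so the nuclear transcripts of both baits, which would check the labels, were not measured, and neither were nuclear markers of cell types.

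Group II introns are folded, self-splicing RNAs by origin that need proteins to splice in plant chloroplasts. MatK is the only intron maturase encoded in the chloroplast genome of land plants. It lies within the intron of *trnK*-UUU and acts on introns of the group IIA class in transfer RNA (tRNA) genes, in *atpF* (a subunit of ATP synthase) and in the ribosomal protein genes *rpl2* and *rps12*. MKIP1 is a plastid protein related to starch-branching enzymes that associates with MatK.

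The sequences below show where reads were densest in the target introns. Each is a window of the intron on its own strand, read from the TAIR10 chloroplast genome as given by RefSeq, and the capitals mark the segment of at least 5 nt with the highest mean density in the *At*MKIP1-YFP precipitates. The last line is *trnG*-UCC exon 2, the RNA with the lowest ratio of precipitate to input, which holds the 3′ part of a glycine tRNA.
*trnA-UGC* intron, Pt:104268-104348, plus strand: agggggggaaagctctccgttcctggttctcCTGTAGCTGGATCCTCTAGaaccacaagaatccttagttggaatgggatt
*trnI-GAU* intron, Pt:103198-103278, plus strand: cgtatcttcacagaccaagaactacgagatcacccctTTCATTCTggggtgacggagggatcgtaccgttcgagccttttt
*atpF* intron, Pt:12166-12246, minus strand: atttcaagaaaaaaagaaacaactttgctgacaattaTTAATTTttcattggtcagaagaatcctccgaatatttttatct
*rpl2* intron, Pt:84911-84991, minus strand: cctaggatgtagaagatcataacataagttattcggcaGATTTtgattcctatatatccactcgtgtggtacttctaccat
*trnV-UAC* intron, Pt:51333-51413, minus strand: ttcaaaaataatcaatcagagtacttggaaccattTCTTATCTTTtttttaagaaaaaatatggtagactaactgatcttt
*trnG*-UCC exon 2, Pt:9383-9431, plus strand: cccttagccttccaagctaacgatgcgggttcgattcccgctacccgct

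In the *trnA*-UGC intron the marked segment covers nt 597 to 615 of 801. Its density, in reads per kb and 1000000 mapped reads as everywhere below, was 1262669 ± 56158 in *At*MKIP1-YFP precipitates, against 3002 ± 566 in inputs (SD, n = 3 each). The *trnI*-GAU segment, nt 398 to 405 of 729, had 225679 ± 38874 in precipitates and 3602 ± 627 in inputs. The midpoints of these 2 segments lie in the loop of a perfect inverted repeat of 7 bases (tggttct with agaacca, and tcacccc with ggggtga). Of all nucleotides of the 7 target introns, 6.37% lie in the loop of a perfect inverted repeat at least that long, with loops of 3 to 30 nt and no G-U pairs. In *atpF* the segment covers nt 445 to 451 of 715 and had 104422 ± 17367 in precipitates, against 328 ± 26.2 in inputs. The *rpl2* segment, nt 501 to 505 of 682, had 41703 ± 11111 in precipitates and 140.03 ± 15.0 in inputs. The inverted repeats around the *atpF* and *trnV*-UAC segments have 6 bases, a length reached at 17.4% of target intron nucleotides, and that around the *rpl2* segment has 4 bases, reached at 84.2%. For *trnV*-UAC the segment covers nt 455 to 464 of 599, with 83822 ± 4605 in precipitates and 1279 ± 152 in inputs. The marked segment was the densest one in 3 of 3 precipitates for each of these introns except *trnV*-UAC, where it was in 2 of 3. These 5 lie in the second part of the intron, between 135 and 324 nt from its 3′ end. In the *trnK*-UUU intron, not printed here because its input is unresolved, the densest segment lies 2076 nt from the 3′ end, was the densest in 1 of 3 precipitates and has an inverted repeat of 5 bases, a length reached at 46.2% of target intron nucleotides. The same segments had lower densities in *At*BE3-YFP precipitates, with 111565 ± 58692 in *trnA*-UGC, 57224 in *trnI*-GAU, 10059 in *atpF*, 2079.5 in *rpl2* and 18381 in *trnV*-UAC. Input values at these places come from segments of 102 to 1281 nt, so they are averages over longer stretches, and they carry no detail at the scale of the capitals.

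The precipitate libraries were the smaller ones. The 3 *At*MKIP1-YFP precipitates had 213384 to 319005 mapped reads, which is 12.3% to 15.2% of the reads within the size limits. The 3 inputs had 2213500 to 2868106 mapped reads, or 22.6% to 25.9%. Mapped reads are stated to be free of duplicates for the precipitates but not for the inputs, so these percentages may not be the same quantity. The files give counts in segments whose borders differ between precipitates and inputs, and a read is counted in every segment it touches, so counts were first turned into a density per nt that corrects for this. Only the input RNA was depleted of ribosomal RNA (rRNA) and broken by heat before library construction, so in both lines this handling and the precipitation cannot be told apart. A library measures shares of chloroplast reads, so a large change of one class moves all other values. In such bulk samples fewer cells of a type and less RNA per cell cannot be told apart.

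Introns of the MatK target list took 33.2% ± 0.72 of the reads in *At*MKIP1-YFP precipitates and 3.39% ± 0.27 in inputs (SD, n = 3 each). The values were 32.3%, 33.5% and 33.7% in precipitates, against 3.07%, 3.56% and 3.54% in inputs, and the groups did not overlap. The exact permutation test gave p = 0.10, the smallest that 3 against 3 libraries allow, as it did for each class below unless another value is given. In *At*BE3-YFP precipitates the same introns took 4.91% ± 1.04, against 3.34% ± 0.18 in *At*BE3-YFP inputs. Of the input share in *At*MKIP1-YFP, 2.31 percentage points were assigned to the *trnK*-UUU intron from a long segment that also holds *psbA*, divided by length. With each segment given whole to 1 class the share was 35.3% ± 0.74 in *At*MKIP1-YFP precipitates and 1.11% ± 0.093 in inputs, and 5.37% ± 1.16 in *At*BE3-YFP precipitates against 1.05% ± 0.087 in *At*BE3-YFP inputs. A single intron, that of *trnA*-UGC, made up 24.2% ± 0.97 of the *At*MKIP1-YFP precipitate reads and 0.457% ± 0.051 of the input reads.

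Ribosomal RNA was the class that the precipitates lost. It took 19.1% ± 2.17 of the reads in *At*MKIP1-YFP precipitates and 70.0% ± 2.21 in inputs, in a design where only the inputs had been treated to deplete rRNA. Whether that treatment targets chloroplast rRNA is not given in the sources used here. In *At*BE3-YFP it took 21.96% ± 3.72 in precipitates and 70.9% ± 1.84 in inputs. Exons and intron-free genes of mRNAs took 25.6% ± 2.18 of the *At*MKIP1-YFP precipitate reads and 6.76% ± 0.76 of the input reads. This class includes *psbA* and the exons of *atpF*, *rpl2* and *rps12*. In inputs part of *psbA* lies in the long segment with the *trnK*-UUU intron, so the input share also depends on dividing that segment by length. In *At*BE3-YFP the mRNA share was 42.9% ± 1.18 in precipitates and 6.61% ± 0.46 in inputs.

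Among the other classes, introns outside the target list took 1.65% ± 0.14 in *At*MKIP1-YFP precipitates and 1.12% ± 0.091 in inputs. RNA antisense to genes took 4.26% ± 0.24 in precipitates and 2.92% ± 0.34 in inputs. Both of these differences had the other sign when rRNA was left out of the total, at -1.70 and -4.44 percentage points. The rest of the genome took 12.5% ± 0.43 in precipitates and 12.3% ± 0.77 in inputs (exact permutation p = 0.8). With rRNA left out of the total it took 15.5% ± 0.12 in precipitates and 41.1% ± 1.11 in inputs.

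Transfer RNAs as a class took 3.64% ± 0.12 in *At*MKIP1-YFP precipitates and 3.50% ± 0.37 in inputs (exact permutation p = 0.6), and 4.51% ± 0.26 against 11.7% ± 0.73 with rRNA left out of the total. When this total was split, the parts differed in opposite directions. The 8 exons of the target genes *trnA*-UGC, *trnI*-GAU, *trnK*-UUU and *trnV*-UAC took 3.12% ± 0.14 in precipitates and 0.310% ± 0.022 in inputs, while all other tRNAs took 0.522% ± 0.015 in precipitates and 3.19% ± 0.35 in inputs. Neither pair of groups overlapped (exact permutation p = 0.10 for each, the smallest possible). In *At*BE3-YFP the other tRNAs took 0.713% ± 0.064 in precipitates and 2.91% ± 0.40 in inputs, and the exons of target tRNA genes 0.505% ± 0.16 in precipitates and 0.305% ± 0.034 in inputs. This split was made after the data were seen. None of the 8 exons was resolved in the inputs, so their input values were taken from longer segments around them. The other tRNAs are the class share minus these exons, and the class share divides segments by another rule. The parts are therefore not on the same measure, and their sizes are approximate. Between 30.4% and 34.9% of the reads in the 6 *At*MKIP1-YFP libraries lay in segments with under 90% of their length in 1 class, so shares of small classes depend on how such segments were divided.

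**Figure D1:**
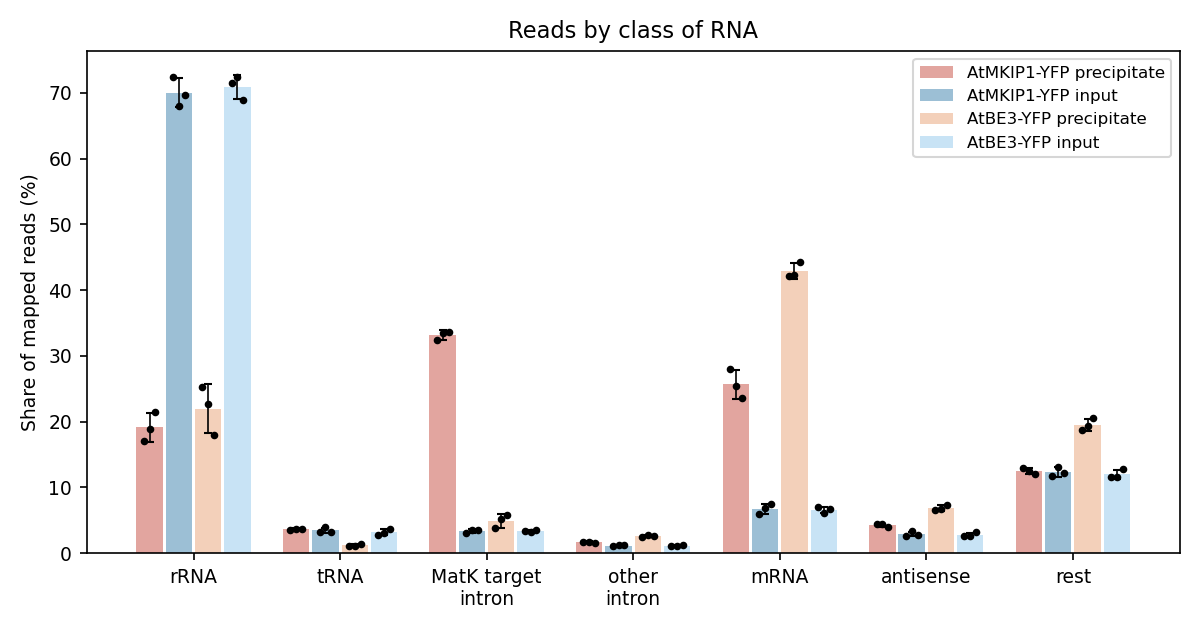
Share of mapped reads (%) in 7 classes of chloroplast RNA, for precipitates and inputs of both lines, where bars are means of 3 libraries, error bars the SD and points the libraries. The MatK target introns took 33.2% in *At*MKIP1-YFP precipitates and 3.39% in *At*MKIP1-YFP inputs, and rRNA took 19.1% and 70.0%.

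Of 153 exons, introns, intron-free genes, tRNAs and rRNAs, 22 were resolved by the segments of both fractions and could be ranked. Of these, 19 were higher in *At*MKIP1-YFP precipitates than in inputs (86.4%) and 3 were lower (13.6%), at an edgeR adjusted p under 0.01. For 22 of 22 the precipitates did not overlap the inputs. The median log2 fold change (log2 FC) was 1.80, and 10 RNAs were more than 4-fold higher. With rRNA left out of the library size this median moved by -1.43, with TMM by -1.48 and with DESeq2 by -1.79. Under all of these scalings 10 RNAs were called higher and 3 lower, while 8 had the other sign under at least 1 of them. The 10 are the 5 target introns, *atpF* exon 1, *atpE*, *atpA*, *atpI* and *psbB*.

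**Figure D2:**
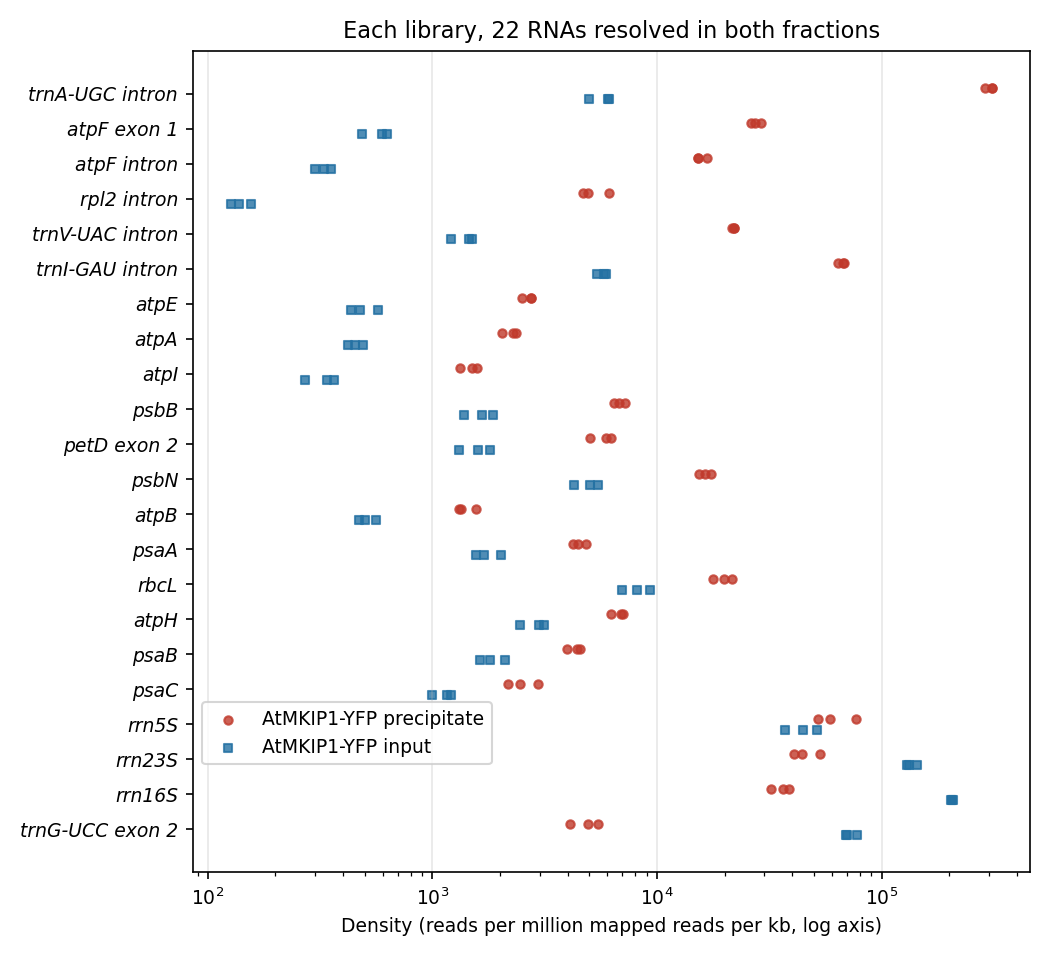
Density of 22 RNAs in each *At*MKIP1-YFP library (reads per kb and 1000000 mapped reads, log axis), in order of log2 FC, where circles are the 3 precipitates and squares the 3 inputs. The target introns and *atpF* exon 1 are at the top, and *trnG*-UCC exon 2, at 4838 in precipitates and 72487 in inputs on average, is at the bottom.

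The 5 measured introns of the MatK target list took 5 of the 6 highest ranks. The *trnA*-UGC intron, within the gene of an alanine tRNA, had densities of 288018, 309149 and 308815 in *At*MKIP1-YFP precipitates, against 4976, 6111 and 6035 in inputs. This is a log2 FC of 5.73 ± 0.14 (SE, edgeR adjusted p = 1.15e-58), or 52.9-fold. The lowest precipitate was far above the highest input. The *atpF* intron had 16648, 15272 and 15155 in precipitates, against 300.1, 329.6 and 353 in inputs. Its log2 FC was 5.58 ± 0.16.

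The *rpl2* intron, in the gene of a protein of the large ribosomal subunit, was the scarcest of the 5 in the inputs. Its densities were 6122, 4704 and 4906 in precipitates, against 126, 138 and 156 in inputs, for a log2 FC of 5.22 ± 0.16. The *trnI*-GAU intron was as abundant in the inputs as that of *trnA*-UGC but had a lower ratio. The *trnI*-GAU intron, within an isoleucine tRNA gene, had 67466, 63729.5 and 68172 in precipitates, against 5390.2, 5935 and 5790.4 in inputs, with a log2 FC of 3.54 ± 0.13. The *trnV*-UAC intron, within a valine tRNA gene, had 22021, 22006 and 21479 in precipitates, against 1215, 1495 and 1455 in inputs, with a log2 FC of 3.97 ± 0.14. The upper 3 (*trnA*-UGC intron, *atpF* exon 1 and *atpF* intron) had log2 FC of 5.58 to 5.73 with standard errors of 0.14 to 0.17, so their order is not settled. The ratio depends on the density used: without the correction for reads that cross borders the log2 FC of these introns was 4.82 (*trnI*-GAU) to 7.56 (*atpF*), and with assumed reads of 60 nt it was 3.15 (*trnI*-GAU) to 5.36 (*trnA*-UGC).

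Averaged over its length, the exon in front of the *atpF* intron was as high relative to the input as the intron itself. *atpF* exon 1 was the only exon of a target gene resolved in both fractions, with 27191, 28983 and 26335 in precipitates, against 484, 597 and 625 in inputs. Its log2 FC of 5.59 ± 0.17 was next to that of the intron. The log2 ratio of the *atpF* intron to this exon was -0.81 ± 0.11 in precipitates and -0.79 ± 0.088 in inputs (SD, n = 3 each), a difference of -0.02 with an exact permutation p = 0.9. In *At*BE3-YFP the ratio was -1.31 ± 0.33 in precipitates and -0.66 ± 0.12 in inputs. The difference in *At*MKIP1-YFP was 0.47 without the border correction and -0.29 with all overlapping segments, so its direction rests on that choice.

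Other exons were resolved in the precipitates only, and there their level relative to the intron could be read. In *At*MKIP1-YFP precipitates the log2 ratio of intron to exon was -0.53 ± 0.017 for *atpF* exon 2, -0.51 ± 0.12 for *rpl2* exon 1 and -1.42 ± 0.15 for *rpl2* exon 2 (SD, n = 3). For *trnA*-UGC it was -0.69 ± 0.031 with exon 1 and 1.04 ± 0.14 with exon 2. For *trnI*-GAU it was -0.12 ± 0.21 with exon 1 and 0.89 ± 0.17 with exon 2. The first exons of both tRNA genes were thus at least as dense as the introns on average and the second exons less dense. In precipitate 1 the *trnI*-GAU value with exon 1 was 0.12, so there the intron was denser. In *At*BE3-YFP precipitates *trnA*-UGC had -1.14 ± 0.25 with exon 1 and 0.49 ± 0.24 with exon 2. The *trnI*-GAU values in *At*BE3-YFP were 0.60 ± 0.047 and 1.56 ± 0.21. The *trnV*-UAC intron had 0.20 ± 0.20 with exon 2, while the *trnK*-UUU intron had -3.17 ± 0.059 with exon 1 and -1.93 ± 0.10 with exon 2. *rps12* intron 2 had -0.70 ± 0.30 with exon 1 and -1.40 ± 0.11 with exon 2. Exon 1 does not flank this intron, since it lies elsewhere in the genome and is joined by trans-splicing of separate transcripts. No segment of at least 5 nt lay wholly within *rps12* intron 2, so its density rests on segments that are shorter or cross its borders.

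The protein-coding RNAs outside the target list had smaller ratios than the introns. Of these, 12 were resolved and 12 were higher in *At*MKIP1-YFP precipitates than in inputs, where 86.4% of all 22 RNAs were higher, with log2 FC of 1.16 to 2.43 and a median of 1.60, against the median of 1.80 over all 22. The ATP synthase genes *atpE*, *atpA*, *atpI*, *atpB* and *atpH* had log2 FC of 2.43, 2.30, 2.17, 1.46 and 1.24. *atpA*, for the alpha subunit, had 2348, 2293 and 2048 in precipitates, against 419, 451 and 492 in inputs. *atpE*, for the epsilon subunit, had 2758, 2738 and 2499 in precipitates, against 434, 474 and 574 in inputs. Its log2 FC was 0.36 when all overlapping segments were used, and it was then not called.

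Photosystem genes lay in the same range. *psbB*, for the inner antenna protein CP47 of photosystem II, had 6775, 7225 and 6408 in precipitates, against 1381, 1659 and 1859 in inputs, with a log2 FC of 2.06 ± 0.13. Every precipitate was above every input, as for each of the 12 protein-coding RNAs. *psbN*, for a protein needed to assemble photosystem II, had 17403, 16315 and 15319 in precipitates, against 4251, 5011 and 5444 in inputs, with a log2 FC of 1.74 ± 0.14. The photosystem I genes *psaA*, *psaB* (both for reaction centre proteins) and *psaC* (for an iron-sulphur protein) had 1.35 ± 0.13, 1.22 ± 0.13 and 1.16 ± 0.17. *petD* exon 2, for a subunit of the cytochrome b6f complex, had 1.86 ± 0.14.

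*rbcL*, which encodes the large subunit of Rubisco, had 21472, 19870.3 and 17812 in *At*MKIP1-YFP precipitates, against 6990.4, 8137 and 9310.1 in inputs. The groups did not overlap and the log2 FC was 1.28 ± 0.12. The direction of several of these changes depended on the library size. With rRNA left out of the library size *psaA*, *psaB*, *psaC*, *rbcL* and *atpH* had log2 FC of -0.08, -0.21, -0.27, -0.16 and -0.19, none of which was called, and *atpB* had 0.02. Under that scaling *atpE*, *atpA*, *atpI*, *psbB*, *petD* exon 2 and *psbN* stayed higher, at 1.00, 0.86, 0.74, 0.63, 0.44 and 0.31.

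The RNAs lost from the precipitates were both large rRNAs and the 3′ exon of a tRNA. *rrn16S*, the rRNA of the small subunit, had 32144, 36219 and 38626 in *At*MKIP1-YFP precipitates, against 205127, 202856 and 207687 in inputs, for a log2 FC of -2.52 ± 0.12. *rrn23S*, the main rRNA of the large subunit, had 40858, 44309.7 and 53336 in precipitates, against 143949.9, 129093 and 132785 in inputs, for a log2 FC of -1.55 ± 0.11. *trnG*-UCC exon 2 had 5470.1, 4936 and 4107 in precipitates, against 69742, 77956 and 69762 in inputs. Its log2 FC of -3.91 ± 0.17 was the lowest of the 22 and rests on as few as 54 reads in a precipitate. The precipitate density is that of a stretch of 86 nt, of which 57.0% is exon, while the input segments are finer. Over that same stretch the inputs had 37657 ± 2416 and the log2 FC was -2.97 ± 0.17. So the size of this loss depends on the segments used. All 3 RNAs stayed lower under each scaling.

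The 5S rRNA was higher in precipitates per mapped read, unlike the large rRNAs, and was lower with rRNA left out of the library size, TMM or DESeq2. *rrn5S* had 58893, 76804 and 52068 in *At*MKIP1-YFP precipitates, against 37073, 51569 and 44745 in inputs. The lowest precipitate was only just above the highest input, and the log2 FC was 0.49 ± 0.13 (edgeR adjusted p = 1.82e-04). Without precipitate 2 it was 0.32 and without input 1 it was 0.38, neither of which was called, and with rRNA left out of the library size it was -0.93 and called lower.

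*At*BE3-YFP precipitates differed from their own inputs in many of the same RNAs, so the excess of *At*MKIP1-YFP over *At*BE3-YFP (the difference of both log2 FC) was tested as an interaction over the 12 libraries. Of 22 RNAs, 6 had a higher ratio of precipitate to input in *At*MKIP1-YFP (27.3%) and 12 a lower one (54.5%). The 6 are the 5 target introns and *atpF* exon 1, and 11 of the 12 are protein-coding RNAs. The borders of the precipitate segments come from the authors' comparison of the precipitates of both lines, a difference that is part of this excess. RNAs that differ between the lines are thus more likely to be resolved. These counts describe the 22 only, and they cannot show how often the lines differ over the genome. For the *trnA*-UGC intron the log2 FC was 5.73 ± 0.14 in *At*MKIP1-YFP and 2.40 ± 0.23 in *At*BE3-YFP, an excess of 3.32 ± 0.23 (edgeR adjusted p = 8.71e-29).

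In *rpl2* the intron had an excess of 2.74 ± 0.22, and in *atpF* the excess was 2.72 ± 0.21 for the intron and 2.09 ± 0.21 for exon 1. It was smaller for the *trnI*-GAU intron, at 1.72 ± 0.21, and for the *trnV*-UAC intron, at 1.05 ± 0.21. All 6 RNAs were higher in the precipitates of both lines. Their log2 FC in *At*BE3-YFP were 1.82 (*trnI*-GAU intron) to 3.50 (*atpF* exon 1), with a median of 2.67. The *trnV*-UAC intron had 3.97 in *At*MKIP1-YFP and 2.93 in *At*BE3-YFP. The direction and the call of these 6 were kept with rRNA left out of the library size, with TMM and with DESeq2.

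Protein-coding RNAs had log2 FC of 1.16 to 2.43 in *At*MKIP1-YFP and 1.88 to 3.59 in *At*BE3-YFP, with an excess of -1.53 (*psbN*) to -0.43 (*psbB*, edgeR adjusted p = 0.0457, not called). The target introns took 33.2% of the *At*MKIP1-YFP precipitate reads and 4.91% of the *At*BE3-YFP precipitate reads, and the part of this difference in the negative values was not tested. TMM moved the median excess by 0.53 and DESeq2 by 0.68, and 7 RNAs were then called lower with each. With DESeq2 the excess of *psbB* was 0.26 and called higher. The excess of *psaB*, -0.66, was not called without *At*MKIP1-YFP precipitate 3 (-0.61), without *At*MKIP1-YFP input 3 (-0.55) or without *At*BE3-YFP input 2 (-0.61). *trnG*-UCC exon 2 had an excess of -1.49 ± 0.23. The rRNAs *rrn16S*, *rrn23S* and *rrn5S* had an excess of -0.09 ± 0.20, -0.25 ± 0.20 and -0.09 ± 0.22, none of which was called.

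**Figure D3:**
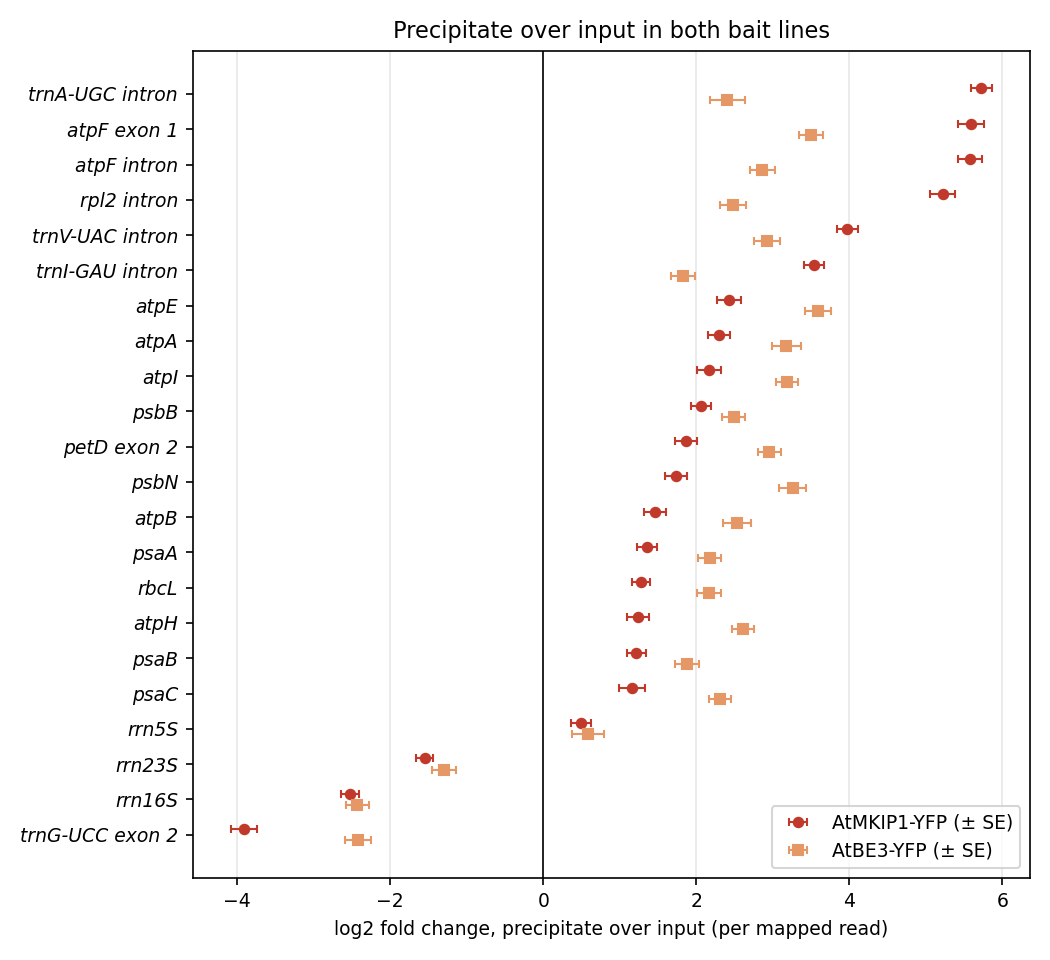
Log2 fold change of precipitate over input (per mapped read) for 22 RNAs, with circles for *At*MKIP1-YFP and squares for *At*BE3-YFP, where points are edgeR estimates from 3 precipitates and 3 inputs and bars the SE. The target introns and *atpF* exon 1 lie to the right in *At*MKIP1-YFP (3.54 to 5.73), and the large rRNAs lie close together in both lines.

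Most of the genome is not covered by the 22 RNAs, so the genome was also divided at the borders that the segments of both fractions share within 20 nt. This was chosen after the data were seen and gave 46 stretches on both strands. Of these, 38 were higher in *At*MKIP1-YFP precipitates than in inputs (82.6%) and 4 were lower (8.70%). The excess over *At*BE3-YFP was higher in 19 (41.3%) and lower in 15 (32.6%). These borders also rest on the comparison of both lines, so such percentages are not shares of the genome. With rRNA left out of the library size 28 stretches were higher and 14 lower.

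The ratio of precipitate to input was uneven along the introns. In the *trnA*-UGC intron 8 of 8 stretches were higher, with log2 FC of 4.01 to 8.28. The highest covers nt 573 to 644, around the capitals printed above, with 933571 ± 47149 in *At*MKIP1-YFP precipitates and 3002 ± 566 in inputs (SD, n = 3 each). *At*BE3-YFP had a log2 FC of 5.02 ± 0.33 in the same stretch, which was also its highest in this intron. The order of the 4 highest stretches was the same in both lines, and the excess of *At*MKIP1-YFP was 2.86 to 4.01 in all 8 stretches. At the 3′ end, nt 705 to 811 (with the first bases of exon 2), the log2 FC was 4.02 ± 0.16 in *At*MKIP1-YFP and 0.34 ± 0.24 in *At*BE3-YFP.

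The *trnI*-GAU intron had log2 FC of 1.70 to 5.58 in 3 stretches, with the highest at nt 422 to 574, next to the marked segment. That stretch had 116266 ± 16751 in precipitates and 2419.9 ± 375 in inputs. The last stretch, nt 575 to 763, had 1.70 ± 0.15, and with rRNA left out of the library size 0.27 ± 0.13, which was not called. In the *trnV*-UAC intron the 4 stretches had 2.34 to 5.05, with the highest at nt 377 to 469, which holds the marked segment. There the excess over *At*BE3-YFP was 2.08 ± 0.24, against 0.61 to 0.84 in the other 3 stretches. A stretch of *rpl2* exon 2, nt 97 to 278, had a log2 FC of 5.91 ± 0.18, with 18162 ± 1647 in precipitates and 301 ± 39.3 in inputs. A longer stretch with the *rpl2* intron and parts of both exons had 5.37 ± 0.18. *atpF* exon 1 was uneven. A stretch of 76 nt across its border with the intron had a log2 FC of 6.42 ± 0.19 and an excess of 2.51 ± 0.23. The next stretch, with the rest of exon 1 and RNA upstream of it, had 2.97 ± 0.16. Its excess of 0.01 ± 0.20 was not called.

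**Figure D4:**
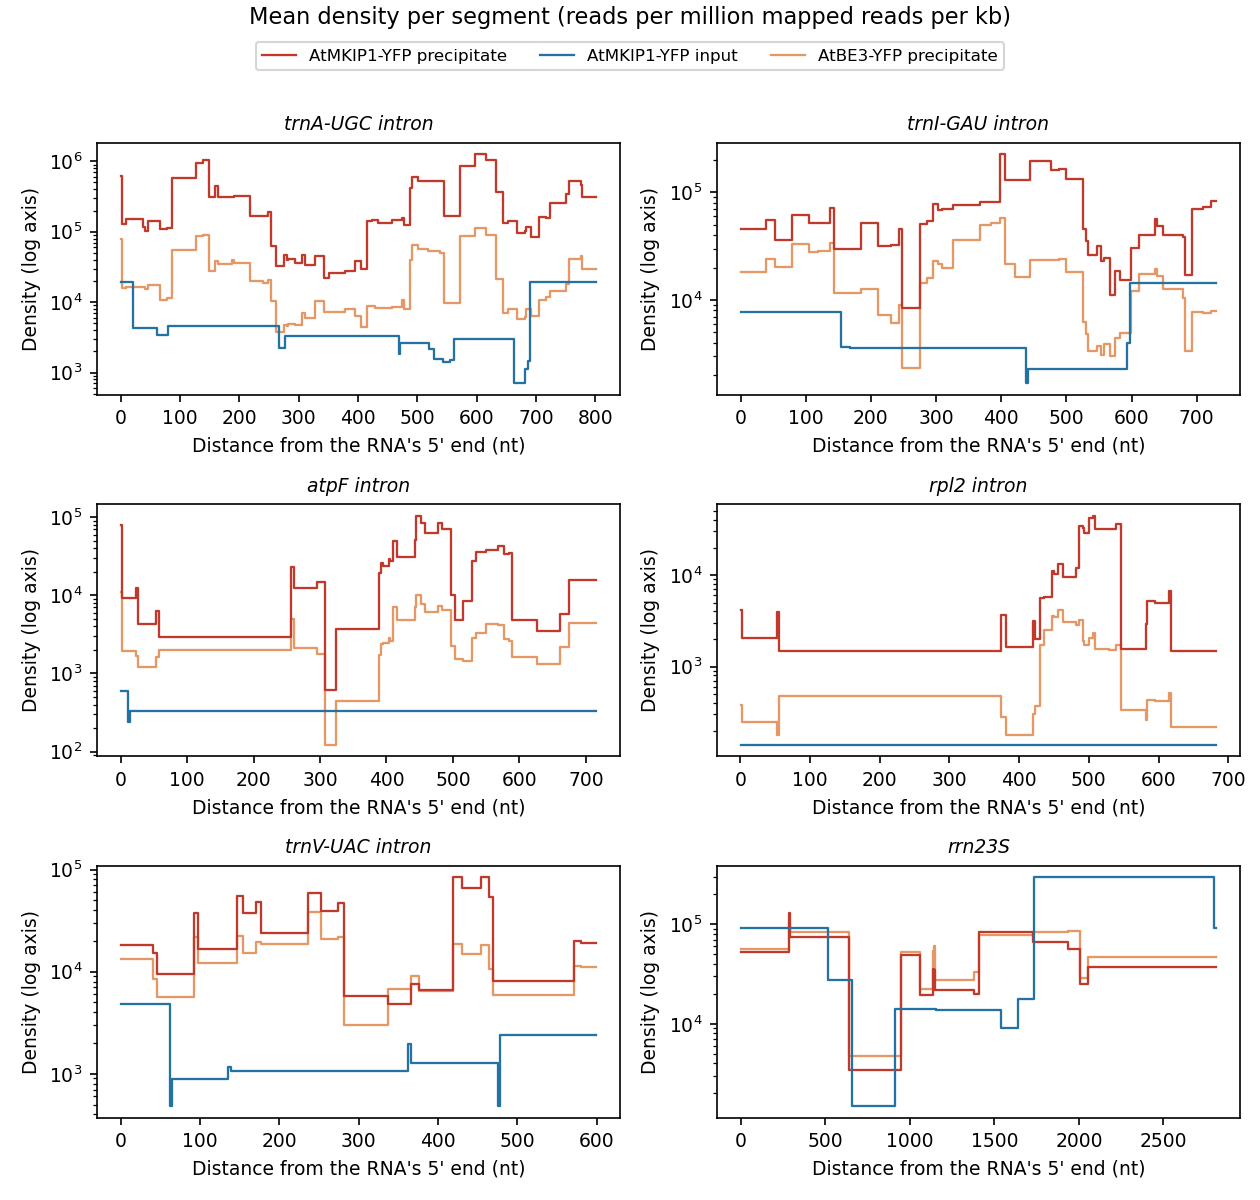
Mean density of each segment (reads per kb and 1000000 mapped reads, log axis) by distance from the 5′ end of 5 target introns and of *rrn23S*, where lines are means of 3 libraries for *At*MKIP1-YFP precipitates, *At*MKIP1-YFP inputs and *At*BE3-YFP precipitates. In the *trnA*-UGC intron the *At*MKIP1-YFP precipitates peak at 1262669, where the inputs have 3002.

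Along *rrn23S* the ratio had both signs, also with rRNA left out of the library size (0.60 and -4.04 in the stretches named first and second here). This RNA is cut into shorter pieces in mature chloroplast ribosomes. The stretch from nt 1140 to 1726 was higher in *At*MKIP1-YFP precipitates, with 55485 ± 8667 in precipitates, 13495 ± 1961 in inputs and a log2 FC of 2.04 ± 0.15. The stretch from nt 1727 onwards, which also holds the 4.5S rRNA, was lower, with 43083 ± 5784 in precipitates, 261371 ± 15010.0 in inputs and a log2 FC of -2.60 ± 0.10. The densities of the precipitates differed less between these stretches than those of the inputs. *At*BE3-YFP had 1.75 ± 0.16 and -2.18 ± 0.13 in the same stretches, and neither excess was called. The input alone was depleted of rRNA, and the part of this step in the pattern was not tested.

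**Figure D5:**
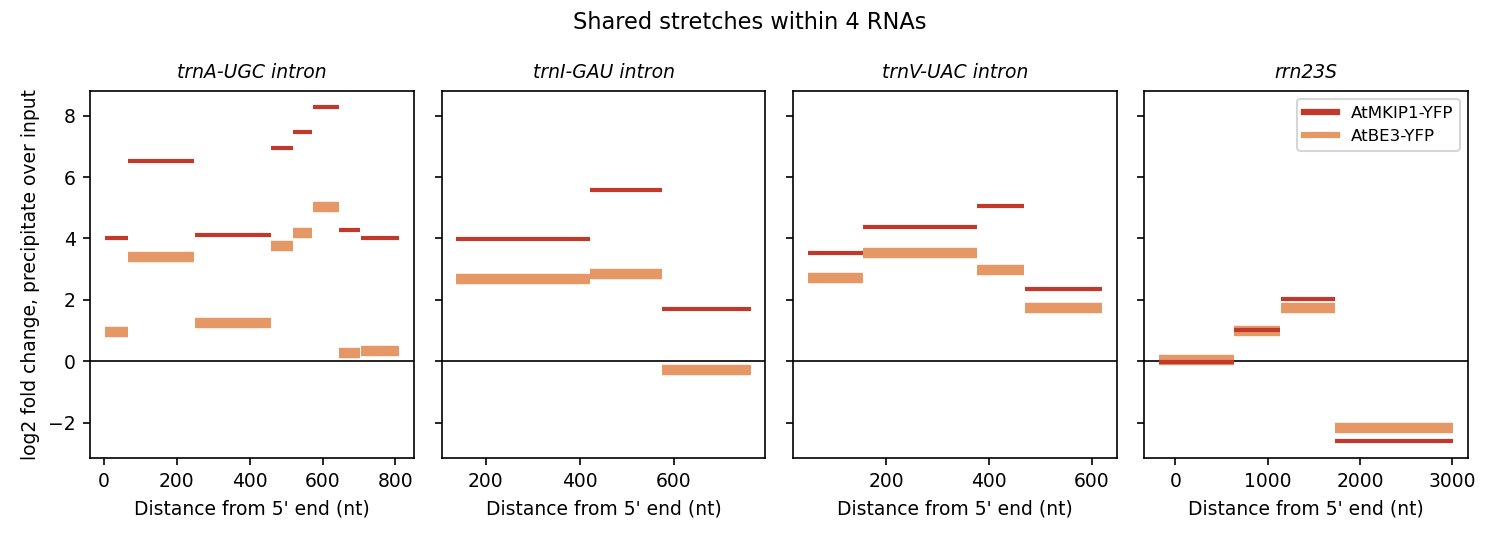
Log2 fold change of precipitate over input in the shared stretches of 3 target introns and of *rrn23S*, by distance from the 5′ end, where thin dark lines are *At*MKIP1-YFP and thick pale lines *At*BE3-YFP, each spanning its stretch. The *trnA*-UGC intron reaches 8.28 in *At*MKIP1-YFP and 5.02 in *At*BE3-YFP, and *rrn23S* has both 2.04 and -2.60 in *At*MKIP1-YFP.

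For the 131 remaining exons, introns and genes, at least 1 fraction had segments too long or too shifted to resolve them. The lowest and highest ratio that any spread of the reads within segments allows was computed for them, per mapped read and after the data were seen. The lowest ratio was above 0 on the log2 scale for 7 of them, and the highest was below 0 for 1. The lowest log2 ratio in *At*MKIP1-YFP was 4.14 for *atpF* exon 2, 3.40 for *rpl2* exon 2 and 2.65 for *trnA*-UGC exon 1. In *At*BE3-YFP it was 2.85, 0.97 and -1.06 for the same exons. For the small ribosomal subunit genes *rps7* and *rps19* the lowest ratio in *At*MKIP1-YFP was 1.55 and 1.46. For *psbA*, which encodes the D1 protein of photosystem II, it was 0.47. In *At*BE3-YFP it was 1.73 for *rps7*, 0.27 for *rps19* and 1.44 for *psbA*, so *rps7* and *psbA* were not particular to *At*MKIP1-YFP. These ratios hold per mapped read, and only those of the 3 exons of target genes exceed the shift of the median under every other scaling. A shared stretch within *psbA* (nt 646 to 815) had a log2 FC of 1.13 ± 0.15 per mapped read. With rRNA left out of the library size that stretch had -0.31 ± 0.086, called lower. The threonine tRNA gene *trnT* on the plus strand had a highest log2 ratio of -0.15 in *At*MKIP1-YFP and 0.89 in *At*BE3-YFP. The seventh of the RNAs above 0, a serine tRNA gene (*trnS*), had a lowest ratio of 0.03 in *At*MKIP1-YFP and 1.88 in *At*BE3-YFP.

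Of the 7 introns on the target list, those of *trnK*-UUU and *rps12* (intron 2) could not be compared with the input. The *trnK*-UUU intron lies in an input segment of 5822 nt that also holds *psbA*, and its densest segment in *At*MKIP1-YFP precipitates, nt 477 to 483 of 2559, had 33853 ± 8752. No segment of at least 5 nt lay wholly within *rps12* intron 2. None of the 13 introns outside the list was resolved in both fractions, so they could not be set against the target introns one by one. Genes of the NDH complex (13 features), RNA polymerase (5) and both ribosomal subunits (12 small, 9 large) had no resolved member, and 1 of 28 tRNA features was resolved.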

How the data were processed

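RNA was extracted from anti-YFP precipitates and inputs, and small RNA libraries were made after kinase treatment of both. The authors trimmed reads with Cutadapt, kept 18 to 60 nt, mapped them with STAR to the TAIR10 chloroplast genome (bases after 129489, in the second inverted repeat, left out) and used 8-nt molecular identifiers and UMI-tools to discard duplicates. Tool versions are not given in the sources used here. The deposited values are counts of reads per strand-specific DiffSegR segment, with 555 segments for precipitates and 574 for inputs. The authors' mapped reads per library, another deposited number, were the library sizes. Per the file headers, only the precipitate numbers are stated to be free of duplicates. Columns of the authors' own fold changes and p-values were not used.

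Reads that cross a border are counted on both sides. Density was therefore count / (length + r - 1), where r, the mean read length of a library, makes the corrected counts sum to its mapped reads (33.1 to 36.7 nt in *At*MKIP1-YFP libraries). A feature was measured where segments at least 50% inside it cover at least 50% of it. Rounded reads of the 22 features were tested with the quasi-likelihood method of edgeR 4.0.16 (R 4.3.3; library sizes set to mapped reads, filterByExpr with a minimum of 10, Benjamini-Hochberg, adjusted p under 0.01; SE as the log2 FC over the square root of F). Spread is shared over only 22 features, so very small p-values say little beyond the sizes and ranges given, and p-values measure the spread between pools. At least 54 reads stand behind a precipitate value and 155 behind an input value. Replicates differed by more than counting noise (chi-square per degree of freedom of 8.14 or more in *At*MKIP1-YFP). Scripts were tested on simulated data. Python 3.11.15, pandas 2.3.3, numpy 2.4.6, scipy 1.17.1, matplotlib 3.10.9 and DESeq2 1.42.0 were also used.

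Values of genes in the inverted repeat sum both copies. The 5S rRNA was placed by sequence match, and exons come from the reference annotation. Members and lists were chosen with earlier results of these data known. Named were all measured target introns, their exons and rRNAs, the 12 highest and 12 lowest features, 2 highest and lowest of other lists, and the densest segment of each target intron. Stretches and the lowest and highest ratios were added later. Alternatives were other library sizes, TMM, DESeq2, plain density, other read lengths, all overlapping segments, no filter, a replicate block and leaving out each library.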

Additional observations from a re-analysis of the deposited data

Results flagged for a closer look

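The ratio of precipitate to input differed between *At*MKIP1-YFP and *At*BE3-YFP by a test of the difference itself (edgeR, 12 libraries, adjusted p under 0.01) for 18 RNAs. The RNAs tested were those resolved by segments whose borders in precipitates come from the comparison of the same 2 lines. The excess of *At*MKIP1-YFP on the log2 scale was 3.32 for the *trnA*-UGC intron, 2.09 for *atpF* exon 1, 2.72 for the *atpF* intron, 2.74 for the *rpl2* intron, 1.05 for the *trnV*-UAC intron and 1.72 for the *trnI*-GAU intron. It was -1.16 for *atpE*, -0.88 for *atpA*, -1.01 for *atpI*, -1.09 for *petD* exon 2, -1.53 for *psbN* and -1.07 for *atpB*. It was -0.82 for *psaA*, -0.89 for *rbcL*, -1.37 for *atpH*, -0.66 for *psaB*, -1.15 for *psaC* and -1.49 for *trnG*-UCC exon 2.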

How the results depend on the processing

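The count of RNAs higher in *At*MKIP1-YFP precipitates was 19, and it was 12 with rRNA left out of the library size, 12 with TMM and 10 with DESeq2. The count lower was 3, with 7 under TMM and 10 under DESeq2. Leaving out 1 library gave 18 to 19 higher and 3 to 3 lower. The excess over *At*BE3-YFP was higher for 6 RNAs, with 7 under DESeq2, where *psbB* was added, and lower for 12, with 7 under TMM, 7 under DESeq2 and 11 to 13 without 1 library. The cause of these moves was not tested. Replicate numbers were not used to pair the samples in the main fit, although the paper's methods take input and bead RNA from the extract of each replicate. Same-numbered precipitates and inputs of *At*MKIP1-YFP deviated with correlations of -0.31, 0.66 and -0.34. A precipitate correlated best with its own number in 1 of 3 cases. So few correlations cannot show whether equal numbers mark the same pool. With a replicate block 19 RNAs were higher and 3 lower, and the excess was higher for 6 and lower for 11.

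Signs turned as follows. For precipitate against input with rRNA left out, *psaA* had -0.077, *rbcL* -0.16, *atpH* -0.19, *psaB* -0.21, *psaC* -0.27 and *rrn5S* -0.93. With TMM *atpB* had -0.031, *psaA* -0.13, *rbcL* -0.21, *atpH* -0.24, *psaB* -0.27, *psaC* -0.33 and *rrn5S* -0.99. With DESeq2 *psbN* had -0.059, *atpB* -0.34, *psaA* -0.44, *rbcL* -0.52, *atpH* -0.55, *psaB* -0.58, *psaC* -0.64 and *rrn5S* -1.31. The excess with TMM was 0.11 for *psbB*, 0.44 for *rrn5S*, 0.27 for *rrn23S* and 0.43 for *rrn16S*. With DESeq2 it was 0.26 for *psbB*, 0.025 for *psaB*, 0.59 for *rrn5S*, 0.43 for *rrn23S* and 0.58 for *rrn16S*. Without 1 library it ranged from -0.30 to 0.16 for *rrn5S* and from -0.19 to 0.0096 for *rrn16S*.

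The difference in rRNA share (precipitate minus input, -50.9 percentage points) was -56.1 with plain counts and -58.4 with whole segments. For whole segments, those without a class of at least 50% were left out of the total. That of target introns (29.8) was 50.5 with plain counts and 34.2 with whole segments. Other introns (0.53) had -0.41 with plain counts and -1.70 with rRNA left out. Antisense RNA (1.35) had -0.63 and -4.44. The *atpF* intron to exon difference was 0.47 with plain density, -0.29 with all overlapping segments and -0.02 with the replicate block. Libraries of 213384 mapped reads and long segments limit what can be resolved: 131 of 153 features were not comparable.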
